A study of Mus musculus with 12 samples.

Results

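Complement genes are followed here in mouse inguinal white adipose tissue (iWAT), a subcutaneous fat depot. The 9 genes are C2, C3, C4b, Cfb, Cfd, Cfi, Cfp, C3ar1 and Serping1, found by symbol among the 23420 genes of the count table, and all 9 had a row and passed the filter on low counts. RNA was sequenced from whole tissue of 12 male C57BL/6 mice aged 10 weeks, with 3 mice in each of 4 groups. TN WT and TN HIF2α AKO mice were kept at thermoneutrality (TN, 30 °C) for 1 week, and cold WT and cold HIF2α AKO mice were kept between 4 and 6 °C for 3 days. All mice carried the HIF2a loxP/loxP alleles. HIF2α AKO mice also carried Adipoq-Cre, which is active in adipocytes, so that Cre and the deletion always came together and the other cells of the tissue kept the gene. WT mice carried the loxP alleles without Cre. The comparisons ask how complement transcripts change in cold and whether that differs with adipocyte HIF2α.

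Complement is a cascade of plasma proteases that marks particles for uptake and builds pores in membranes. The classical and lectin routes cleave C4 and C2 into one C3 convertase, while the alternative route builds a second convertase from C3b and factor B, which factor D (adipsin, encoded by Cfd) cuts and properdin (Cfp) stabilises. White adipocytes are the main source of adipsin, and the released fragments C3a and C3adesArg (also called acylation stimulating protein) have been studied for their effects on fat storage and insulin secretion.

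Library totals ranged from 22368316 to 35204631 counts in genes. Skeletal muscle transcripts stood apart in TN HIF2α AKO replicate 2, with a sum of 2018 CPM (counts scaled to the library total and its TMM factor) over 12 muscle markers, and in cold HIF2α AKO replicate 1, with 1758 CPM. The other 10 libraries held at most 133.6 CPM. Epithelial transcripts stood apart in TN WT replicate 3, with a sum of 277.9 CPM over 8 epithelial markers. All other libraries held at most 12.09 CPM of these. Markers of thermogenic adipocytes summed to between 28.44 and 90.59 CPM at TN and between 3350 and 8582 CPM in cold, and white adipocyte markers were present in every library. Epas1, which encodes HIF2α, was at 278 to 430 CPM in the 6 TN libraries, at 562 to 743 CPM in cold WT and at 743 to 986 CPM in cold HIF2α AKO. Counts over the whole gene thus did not fall with the label HIF2α AKO, and they do not show whether the floxed part was missing, so that genotypes are given by their labels.

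The positions are those of GENCODE vM21 on GRCm38. C4b, Cfb and C2 lie within 170 kb of each other on the minus strand of chromosome 17, where C4b spans 34728380 to 34743882, Cfb 34856374 to 34862518 and C2 34862604 to 34898265. The ends of Cfb and C2 are 86 bases apart. C3 lies on the same chromosome at 57203970 to 57228136. Cfd is a short gene on chromosome 10 (79890853 to 79892655), Serping1 is on chromosome 2 (84765387 to 84775444), Cfi on chromosome 3 (129835884 to 129875332), C3ar1 on chromosome 6 (122847138 to 122856161) and Cfp on chromosome X (20925454 to 20931555). In this annotation a read-through gene shares 79.5% of the exon bases of Cfb, and read-through and neighbouring genes share 46.9% of those of C2. C4a, a near copy of C4b, lies between C4b and Cfb.

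RefSeq promoter sequences were at hand for 4 of the 9 genes, C3, Cfd, Cfp and C3ar1. Those of the genes with the highest levels, Cfd and C3, and of Cfp, whose level jumped between mice, are printed from 250 bases upstream to the base before the start of the gene, 5′ to 3′ on the gene's strand (GRCm38.p6). Capitals mark matches to any of 4 motifs searched on both strands.
Cfd, chr10:79890603-79890852, plus strand: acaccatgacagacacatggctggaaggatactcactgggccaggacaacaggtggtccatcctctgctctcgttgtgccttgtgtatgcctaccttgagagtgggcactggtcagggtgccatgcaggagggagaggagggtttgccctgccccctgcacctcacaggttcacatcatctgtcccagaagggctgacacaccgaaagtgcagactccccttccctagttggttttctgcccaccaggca
C3, chr17:57228137-57228386, minus strand: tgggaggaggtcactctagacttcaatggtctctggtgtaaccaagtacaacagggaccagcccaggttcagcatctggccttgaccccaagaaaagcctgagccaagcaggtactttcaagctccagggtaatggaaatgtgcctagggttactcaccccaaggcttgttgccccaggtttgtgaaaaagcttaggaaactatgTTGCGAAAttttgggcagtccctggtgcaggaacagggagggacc
Cfp, chrX:20931556-20931805, minus strand: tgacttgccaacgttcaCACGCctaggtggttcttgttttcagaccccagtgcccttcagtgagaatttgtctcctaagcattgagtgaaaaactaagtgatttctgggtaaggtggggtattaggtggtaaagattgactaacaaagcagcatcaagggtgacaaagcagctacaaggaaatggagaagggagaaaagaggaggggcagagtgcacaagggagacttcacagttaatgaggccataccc
The motifs were the core of the hypoxia response element (ACGTG or GCGTG), to which HIF proteins bind, a C/EBP site (TTGCNNAA), a GAS element of STAT proteins (TTCNNNGAA) and a TATA box (TATAAA). The stretch upstream of Cfd held none of them. That of C3 held 1 C/EBP match from 45 to 38 bases before the start, which 9.56% of 32851 promoter sequences of this length also hold. Upstream of Cfp, 1 hypoxia response element core lay 233 to 229 bases before the start on the opposite strand, and such a core is present in 38.6% of all promoters. C3ar1 held a TATA box match 235 to 230 bases upstream (12.4% of promoters). A GAS match, held by 7.02% of promoters, was in none of the 4. These matches are letters in a window and say nothing about binding.

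**Figure D1:**
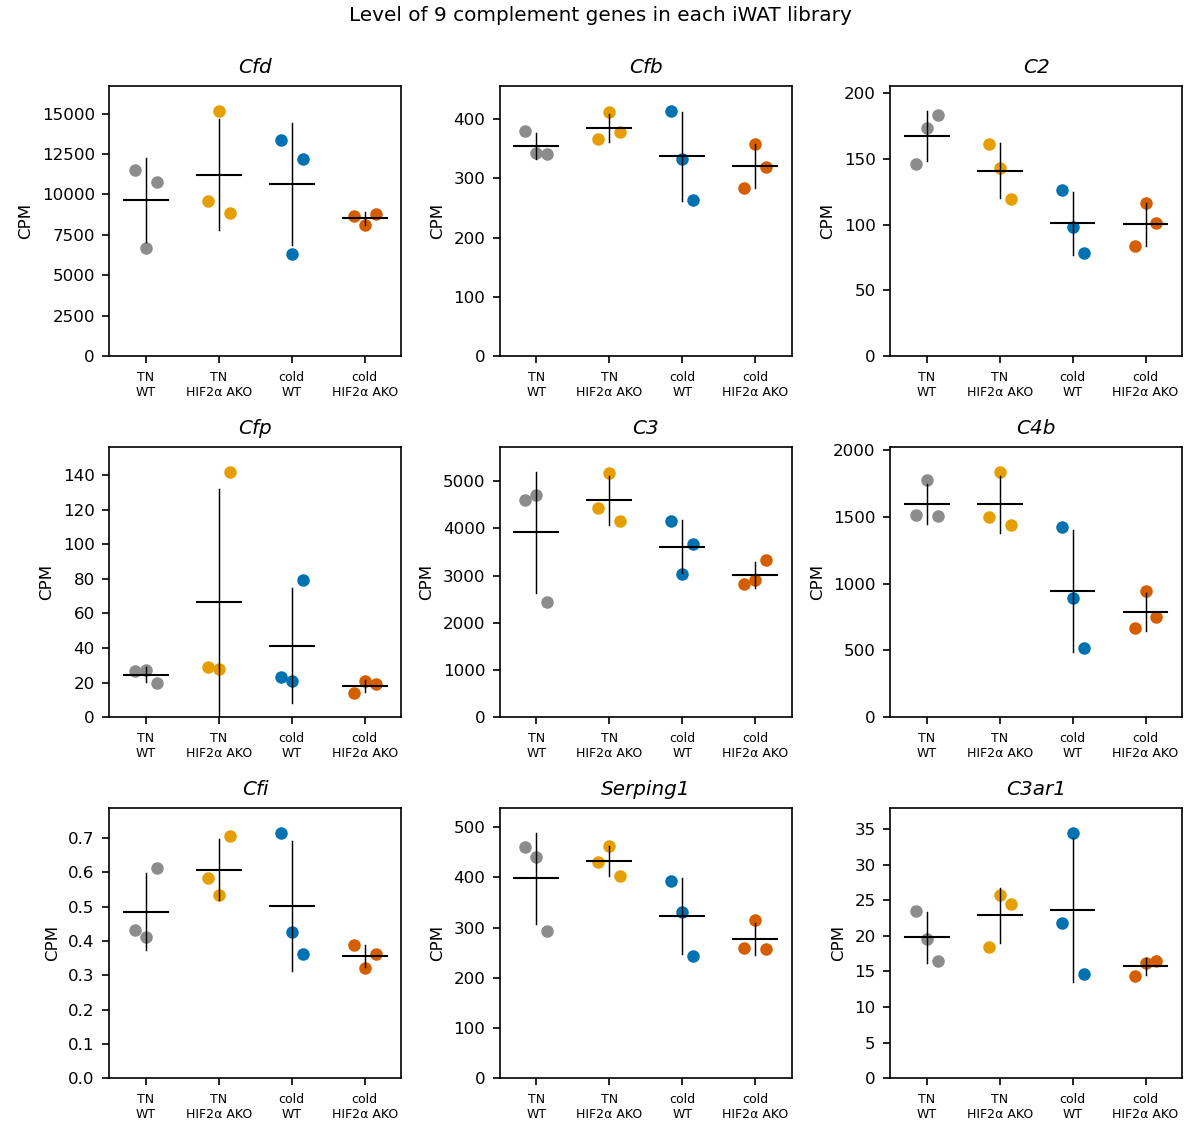
Level of each of the 9 complement genes in CPM (vertical axes, starting at 0) in the 12 libraries, with 1 point per mouse, a horizontal bar at the group mean and a vertical bar of 1 SD. C2 and C4b were lower in all cold libraries of a genotype than in all TN libraries of that genotype, Cfd varied widely within groups, and Cfp was high in 1 TN HIF2α AKO and 1 cold WT library.

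Adipsin had by far the highest level of these complement transcripts. Per kb of exon, Cfd reached 10494 ± 2817 CPM (SD, n = 3) in TN WT, followed by C3 at 762.8 ± 249.6, C4b at 280.2 ± 26.5, Serping1 at 170.6 ± 38.95, Cfb at 125.6 ± 7.546, C2 at 43.27 ± 4.922, Cfp at 14.17 ± 2.417, C3ar1 at 4.605 ± 0.8342 and Cfi at 0.219 ± 0.05017. Cfb and C2 share 79.5% and 46.9% of their exon bases with other genes in the annotation used for lengths. How far this shifts their levels per kb was not tested. The ratio of Cfd to C3 per kb lay between 7.93 and 24.6 over the 12 libraries. Cfd alone took between 0.626 and 1.55% of all counts and ranked between 1 and 7 among genes by count. In TN WT all neighbours in this order were apart from each other in every mouse except Serping1 and Cfb. In both cold groups C4b, Serping1 and Cfb overlapped, with C4b closer to the others than at TN. The order of C2 and Cfp was not fixed, since their ranges overlapped in TN HIF2α AKO and in cold WT.

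Factor D, factor B, properdin and C3 make up the alternative pathway. Cfd, whose protease activates factor B, was at 11538, 6708 and 10781 CPM in TN WT and at 9624, 15185 and 8872 CPM in TN HIF2α AKO. In cold it was at 13392, 6321 and 12196 CPM in WT and at 8671, 8087 and 8816 CPM in HIF2α AKO. The coefficient of variation (SD over mean) was 4.53% in the 3 cold HIF2α AKO mice and between 26.8 and 35.6% in the other groups. The cold HIF2α AKO values were all under those of TN HIF2α AKO and within the range of both WT groups.

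Cold changed Cfd by 0.14 ± 0.34 (log2 fold change ± SE) in WT and by -0.40 ± 0.34 in HIF2α AKO, with adjusted p of 0.785 and 0.398 in edgeR's quasi-likelihood test. The 95% interval of the change in WT reached from -0.62 to 0.89, so that changes of this size in either direction were not detectable with 3 mice a group. The highest library held 2.4 times the CPM of the lowest. In bulk tissue, a smaller number of cells of a type and less RNA per cell cannot be told apart, for Cfd and for every other gene here.

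C3, the component on which all routes converge, was at 4605, 4717 and 2441 CPM in TN WT, at 4431, 5182 and 4166 CPM in TN HIF2α AKO, at 4157, 3033 and 3661 CPM in cold WT and at 2831, 2900 and 3335 CPM in cold HIF2α AKO. All cold HIF2α AKO values were below all TN HIF2α AKO values, while the WT groups overlapped because TN WT replicate 3 was lower than every other library. The log2 fold change in cold was -0.12 ± 0.25 in WT (adjusted p = 0.751) and -0.60 ± 0.26 in HIF2α AKO (adjusted p = 0.0967), and neither passed the limit of 0.05. Under DESeq2 and voom the fall in HIF2α AKO passed, with adjusted p of 0.0393 and 0.04 for C3. Without TN WT replicate 3, the library with epithelial transcripts, the change of C3 in WT was -0.365. The part of those transcripts in the low C3 value was not tested.

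Cfb, the catalytic subunit of the alternative convertase, was among the steadiest of the 9 genes, with values between 264 and 414 CPM over all libraries. It was at 379, 343 and 341 CPM in TN WT and at 414, 332 and 264 CPM in cold WT, which overlap. In HIF2α AKO it was at 366, 411 and 378 CPM at TN and at 284, 358 and 319 CPM in cold, and these did not overlap. Its log2 fold change in cold was -0.07 ± 0.16 in WT and -0.27 ± 0.16 in HIF2α AKO, with adjusted p of 0.746 and 0.21.

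Properdin transcripts were uneven. Cfp, encoded on the X chromosome and best known from myeloid cells, was at 26.8, 27.4 and 19.8 CPM in TN WT, at 29.1, 28.0 and 142 CPM in TN HIF2α AKO, at 23.1, 21.2 and 79.6 CPM in cold WT and at 13.9, 20.8 and 19.4 CPM in cold HIF2α AKO. Both high values came from replicate 3 of their groups, and the other 10 libraries lay between 13.9 and 29.1 CPM. They rest on 4011 and 1978 counts, so that counting error is small. Macrophage markers in these libraries summed to 2657 and 1348 CPM, against 1534 to 2865 CPM in the other 10. Neutrophil markers summed to 140.9 and 86.29 CPM there, against 62.32 to 263.9 CPM in the other 10. Which cells gave the high Cfp values was not tested.

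C2 and C4b belong to the convertase of the classical and lectin routes and are paralogs of Cfb and C3. C2, its protease, was at 146, 173 and 183 CPM in TN WT and at 126, 98.3 and 78.6 CPM in cold WT. In HIF2α AKO it was at 161, 143 and 119 CPM at TN and at 83.4, 116 and 101 CPM in cold. Every cold value was below every TN value of the same genotype. C2 fell in cold WT by 0.73 on the log2 scale (SE 0.19, 0.603 times the TN level, adjusted p = 0.0196), while in HIF2α AKO the change was -0.49 ± 0.18 (adjusted p = 0.0678). Averaged over both genotypes, C2 fell by 0.61 (SE 0.13, adjusted p = 0.00389). The fall in WT was lost without TN WT replicate 2 (adjusted p = 0.0603) or cold WT replicate 3 (0.0765) and when both WT groups were fitted alone (C2, 0.0518).

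C4b, which encodes the C4 that carries the convertase to its target, was at 1513, 1772 and 1507 CPM in TN WT and at 1501, 1838 and 1439 CPM in TN HIF2α AKO. In cold it was at 1422, 891 and 516 CPM in WT and at 671, 943 and 751 CPM in HIF2α AKO. The cold WT mice were spread over the widest range of any group, and their highest value came close to the lowest TN value without reaching it. C4b fell in cold HIF2α AKO by 1.01 on the log2 scale (SE 0.30, 0.495 times the TN level, adjusted p = 0.0308). In WT the change was -0.76 ± 0.30 (adjusted p = 0.0877), and it passed without cold WT replicate 1 (C4b, -1.18, adjusted p = 0.0147) or with DESeq2 (0.0305). Averaged over genotypes, C4b fell by 0.89 (SE 0.21, adjusted p = 0.0066).

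Reads aligned to several places are tallied apart from genes, the rule used for them is not given in the sources used here, and C4b and C4a are near copies, so the split between them is uncertain. C4a had a mere 46 to 109 counts per library, and its log2 fold change in cold was 0.12 in WT and 0.03 in HIF2α AKO, with adjusted p of 0.659 and 0.931. The share of reads aligned to several places was 4.40 to 5.71% in TN libraries and 6.30 to 9.33% in cold libraries, and its part in the fall of C4b was not tested. The span from the start of C4b to the end of C2 on chromosome 17 holds 6 tested genes besides the members, C4a among them. These had adjusted p of 0.0806 or more in cold in both genotypes.

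Serping1 encodes C1 inhibitor, which blocks the C1r, C1s and MASP proteases. It was at 460, 440 and 293 CPM in TN WT, at 431, 462 and 403 CPM in TN HIF2α AKO, at 393, 331 and 244 CPM in cold WT and at 259, 314 and 258 CPM in cold HIF2α AKO. The WT groups overlapped and the HIF2α AKO groups did not. Serping1 fell in cold HIF2α AKO by 0.64 on the log2 scale (SE 0.20, 0.641 times the TN level, adjusted p = 0.0369). In WT the change was -0.30 ± 0.20 (adjusted p = 0.277), and averaged over genotypes it was -0.47 ± 0.14 (adjusted p = 0.0185). Without TN WT replicate 3, the library with epithelial transcripts, the change of Serping1 in WT was -0.477.

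Cfi and C3ar1 were scarce. Factor I, the protease that inactivates C3b and C4b, had between 8 and 20 counts per library, or 0.322 to 0.716 CPM, so that a change of Cfi is poorly measured at this depth. Its log2 fold change in cold was 0.04 ± 0.32 in WT and -0.77 ± 0.33 in HIF2α AKO, with adjusted p of 0.927 and 0.0985. C3ar1, the receptor for C3a, was at 23.5, 19.5 and 16.4 CPM in TN WT, at 18.5, 25.7 and 24.5 CPM in TN HIF2α AKO, at 21.8, 34.5 and 14.6 CPM in cold WT and at 14.4, 16.2 and 16.5 CPM in cold HIF2α AKO. The cold HIF2α AKO mice were low and close together, and the cold WT mice were spread most widely, from 14.6 to 34.5 CPM. C3ar1 changed in cold by 0.25 ± 0.26 in WT and by -0.55 ± 0.26 in HIF2α AKO (adjusted p of 0.481 and 0.135).

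**Figure D2:**
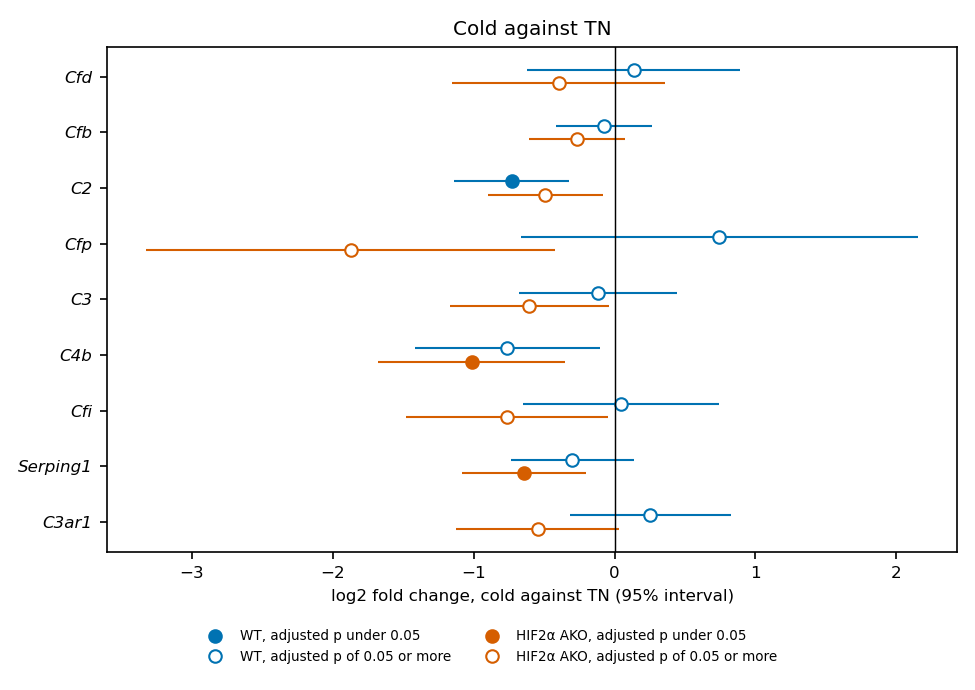
Log2 fold change of each complement gene in cold against TN (horizontal axis) with its 95% interval, for WT and HIF2α AKO, from edgeR. Filled points passed an adjusted p under 0.05, which were C2 in WT and C4b and Serping1 in HIF2α AKO; in HIF2α AKO all 9 points lie left of 0.

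Counted together, 1 of the 9 genes fell in cold WT, 2 fell in cold HIF2α AKO and 3 fell on average over genotypes, and 0 rose in these edgeR tests. Of all 15306 genes tested, 5.68% fell and 15.6% rose in cold WT, 11.5% fell and 15.6% rose in cold HIF2α AKO, and 24% fell and 24.8% rose on average. With 9 genes, counts of 1, 2 and 3 lie near these background shares. At an unadjusted p under 0.05, 2, 6 and 3 of the 9 genes were lower and 0 were higher, beside 16.3%, 21.4% and 28.7% of all genes lower at that limit. The counts of 2 and 3 lie near these shares, and the count of 6 in HIF2α AKO is above its share, with no test made of that excess. At the study's thresholds (unadjusted p under 0.15 and a log2 fold change beyond 0.2 in either direction), 2, 8 and 5 of the 9 passed in cold WT, in cold HIF2α AKO and on average, where 52.5%, 54.6% and 59.9% of all genes did. The study set these limits with DESeq2 for cold HIF2α AKO against cold WT alone. Here and below they are applied to edgeR p-values, and to other comparisons as well. The median log2 fold change of the 9 genes was -0.07 in WT and -0.60 in HIF2α AKO, against -0.03 and -0.05 over all genes.

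In WT, 2 of the 9 genes, C2 and C4b, were lower in all cold than in all TN mice, as were 19.3% of all genes. In HIF2α AKO all 9 were, as were 25.6% of all genes. The test of the difference between genotypes, the interaction of genotype and temperature, passed for 0 of the 9 genes and for 0% of all genes in edgeR, and for 0 of the 9 in DESeq2 and voom. At an unadjusted p under 0.05, 1 of the 9 passed, Cfp, beside 2.14% of all genes. At the study's thresholds 3 of the 9 passed for the interaction, beside 8.81% of all genes. The larger changes in HIF2α AKO are therefore not shown to differ from those in WT.

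Most of these calls were lost without 1 mouse. In cold HIF2α AKO, Serping1 passed in 16 of 24 ways of fitting and C4b in 18 of 24. Leaving out TN HIF2α AKO replicate 1, TN HIF2α AKO replicate 3, cold HIF2α AKO replicate 1 or cold HIF2α AKO replicate 3 took both over the limit, with adjusted p of 0.0717, 0.0572, 0.12 and 0.0712 for C4b and of 0.0957, 0.0658, 0.127 and 0.0884 for Serping1. Without TN HIF2α AKO replicate 2 they were at 0.0689 and 0.0768. Serping1 was also lost without cold HIF2α AKO replicate 2 (0.0503) or cold WT replicate 2 (0.0555). Without both libraries with muscle transcripts, C4b changed by -0.80 (adjusted p = 0.186) and Serping1 by -0.55 (adjusted p = 0.188) in HIF2α AKO, and 0 of the 9 genes passed there in edgeR, with 1 at an unadjusted p under 0.05. The averaged falls of C2 and C4b passed in 23 of 23 ways of fitting and that of Serping1 in 21 of 23.

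Cell type markers moved with temperature as well. The sum of 10 stromal fibroblast and adipose progenitor markers was 4951 to 6646 CPM at TN and 3094 to 4242 CPM in cold, with no overlap. How often all genes show no overlap over both genotypes was not counted. Of these 10 markers, 2 fell in WT and 6 in HIF2α AKO, beside 5.68% and 11.5% of all genes. The sum of 13 macrophage markers was 1587 to 2865 CPM at TN, 1348 to 2790 CPM in cold WT and 1534 to 1797 CPM in cold HIF2α AKO. In HIF2α AKO 2 of the 13 fell, which is near the 11.5% of all genes that fell there. The sum of 10 white adipocyte markers rose from 10004 to 24932 CPM at TN to 26077 to 53346 CPM in cold. Of these 10 markers, 4 rose in WT and 2 in HIF2α AKO, beside 15.6% of all genes in each genotype, and 0 fell. Fold changes of 1 marker in WT and 2 in HIF2α AKO were below 0, so the sum does not stand for the whole list. No marker of these 3 lists was at 0 in any library. Their part in the falls of C2, C4b and Serping1 was not tested.

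**Figure D3:**
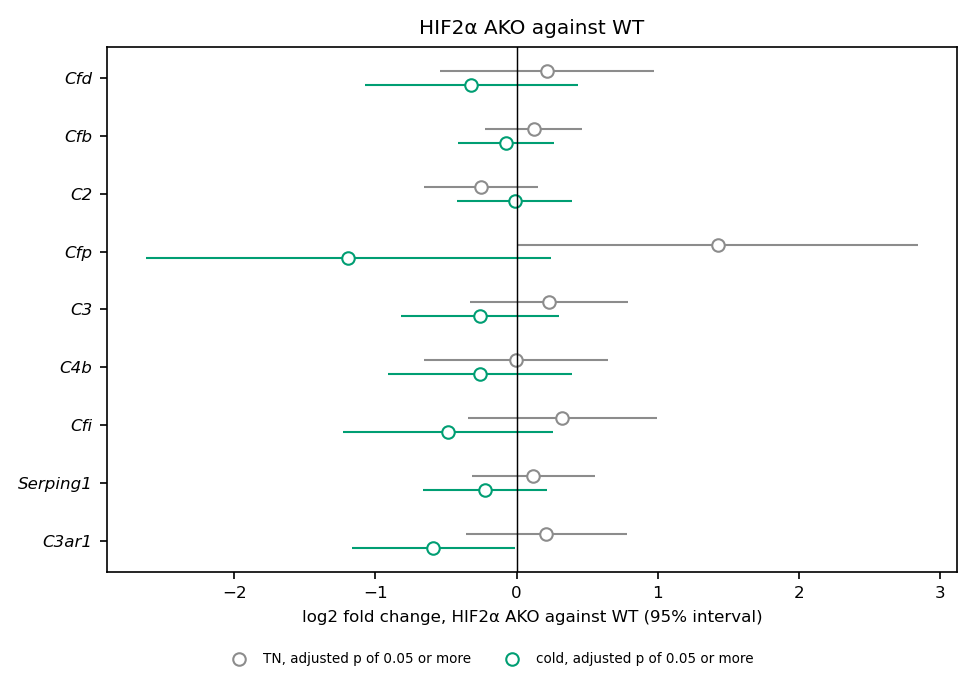
Log2 fold change of each complement gene in HIF2α AKO against WT (horizontal axis) with its 95% interval, at TN and in cold, from edgeR. All points are open, since 0 of the 9 genes passed an adjusted p under 0.05 at either temperature, and the intervals of Cfp are the widest.

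Complement transcripts were not called different between genotypes. At TN and in cold, 0 of the 9 genes passed in edgeR, DESeq2 or voom, and 0.00653% of all genes passed at each temperature in edgeR. The largest difference at TN was that of Cfp, at 1.43 ± 0.65 on the log2 scale (2.69-fold, unadjusted p = 0.0497, adjusted p = 0.999). It was 1 of the 9 at an unadjusted p under 0.05, beside 2.91% of all genes. All 3 TN HIF2α AKO values of Cfp were above all TN WT values, but narrowly (lowest 28.0 against highest 27.4 CPM). The share of all genes with no overlap between genotypes was not counted. Without TN HIF2α AKO replicate 3, the difference of Cfp was 0.21. At the study's thresholds 1 of the 9 genes passed at TN and 2 passed in cold, beside 8.63% and 8.98% of all genes. The other 8 genes differed at TN by between -0.25 (C2) and 0.32 (Cfi).

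In cold, the 9 differences ran from -1.19 for Cfp to -0.01 for C2. C3ar1 was lower in the libraries labelled HIF2α AKO by 0.59 (SE 0.26, unadjusted p = 0.0468, adjusted p = 1), 1 of 9 beside 2.95% of all genes. Its groups overlapped, since cold WT replicate 3 was at 14.6 CPM, and without cold WT replicate 2 the difference of C3ar1 was -0.18. Cfd differed by -0.32 ± 0.34, with a 95% interval from -1.08 to 0.44, and C3 by -0.26 ± 0.26, from -0.82 to 0.30. All 9 values were below 0, as were 56.2% of all genes. Not all signs were stable, since without cold WT replicate 1 C2, C4b and Cfb were at 0.179, 0.164 and 0.103. The 9 differences share the 3 cold HIF2α AKO libraries with the comparison of cold against TN in that genotype, and the median over all genes was -0.02.

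For Cfp the sign of the genotype difference changed with temperature. The interaction was -2.62 ± 0.92 on the log2 scale (unadjusted p = 0.0158, adjusted p = 1), and its 95% interval ran from -4.64 to -0.60. With all libraries, Cfp was not called in cold HIF2α AKO, at -1.87 ± 0.66 (unadjusted p = 0.0161, adjusted p = 0.0555). Both libraries with high Cfp were singled out by Cfp's own values, so values without them are a description only. Without them the interaction was -0.50, the change in cold HIF2α AKO was -0.66 and the averaged change in cold was -0.41. No p-values are given for these, since the removal narrows the spread of Cfp by design. The averaged change of Cfp with all 12 libraries was -0.56 ± 0.45 (adjusted p = 0.318).

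**Figure D4:**
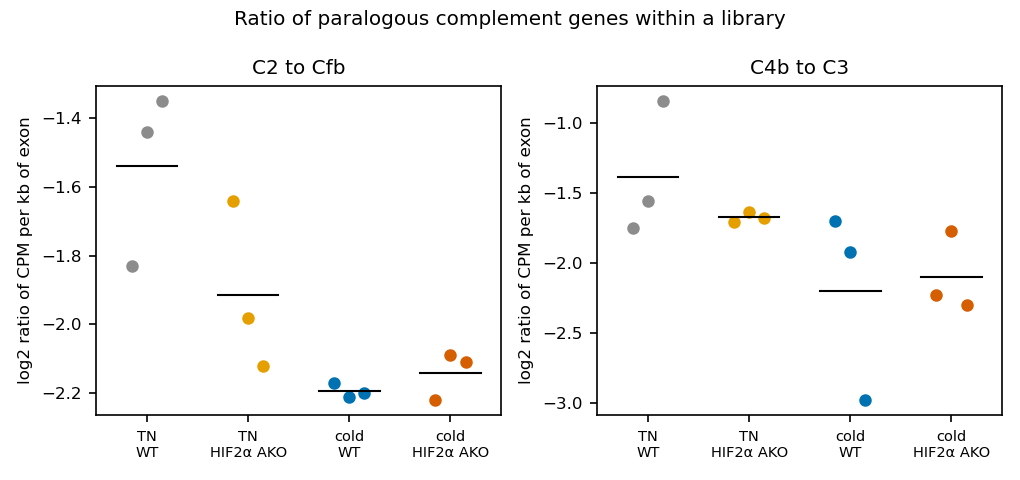
Log2 ratio of C2 to Cfb (left) and of C4b to C3 (right), in CPM per kb of exon, in the 12 libraries, with 1 point per mouse and a bar at the group mean. Both ratios were lower in cold, and the 6 cold mice lay between -2.22 and -2.09 for C2 to Cfb.

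Ratios within a library compare the classical and lectin member with its alternative pathway paralog and do not depend on scaling. The exon bases that C2 and Cfb share with other genes could move their ratio, which was not tested. The log2 ratio of C2 to Cfb averaged -1.73 at TN and -2.17 in cold. It was -1.83, -1.44 and -1.35 in TN WT, -1.64, -1.98 and -2.12 in TN HIF2α AKO, -2.17, -2.21 and -2.20 in cold WT and -2.22, -2.09 and -2.11 in cold HIF2α AKO. The cold mice were nearly alike, and only TN HIF2α AKO replicate 3 reached into their range. Both ratios were chosen after the values of C2 and C4b had been seen, so the p-values that follow are no separate support for the falls. The difference between cold and TN of -0.44 had p = 0.015 in a two-sided exact permutation test within genotypes over 400 arrangements. The smallest p of that test is 0.005. By genotype, the difference was -0.655 in WT and -0.224 in HIF2α AKO.

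The log2 ratio of C4b to C3 averaged -1.53 at TN and -2.15 in cold, a difference of -0.61 (p = 0.01 in the same exact test, over all 12 mice). It was -0.85 in TN WT replicate 3, where C3 was low, and between -1.75 and -1.56 in the other 5 TN mice. In cold it ranged from -2.98 in WT replicate 3 to -1.70 in WT replicate 1, so that the groups overlapped. By genotype, the difference between cold and TN was -0.809 in WT and -0.42 in HIF2α AKO. The p-values of both ratios, chosen with the values of C2 and C4b known, repeat the falls given above on another scale.

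Within groups, several members varied together. Over the 12 libraries, deviations of log2 CPM from the group means gave a Pearson r of 0.93 for C4b and Cfb, 0.80 for C4b and C2, 0.78 for Serping1 and Cfb, 0.76 for Serping1 and C4b, 0.70 for C2 and Cfb, and 0.66 for Serping1 and C3. Cfd followed none of the others, with r between -0.38 and 0.22. Among 13143 genes, the nearest to Cfd were Rab13 (0.99), Rhbdl1 (0.97) and Npr1 (0.96). Serping1 was nearest to Lrrc25, Emr1 and Fgl2 (all 0.98), C4b to Cadm3 (0.96), B9d2 (0.95) and 4930579G24Rik (0.93), and C2 to Anxa8 (0.97), F730043M19Rik and Trim47 (both 0.95). C3 was nearest to Colec12 (0.95), Cfb to Procr (0.95), C3ar1 to Glt8d2 (0.95) and Cfi to Cdh23 (0.93). The highest r for Cfp was lower, at 0.86 with Zhx2. These correlations describe 12 libraries that share depth and scaling in each point, and the highest of many genes is high by selection.

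**Figure D5:**
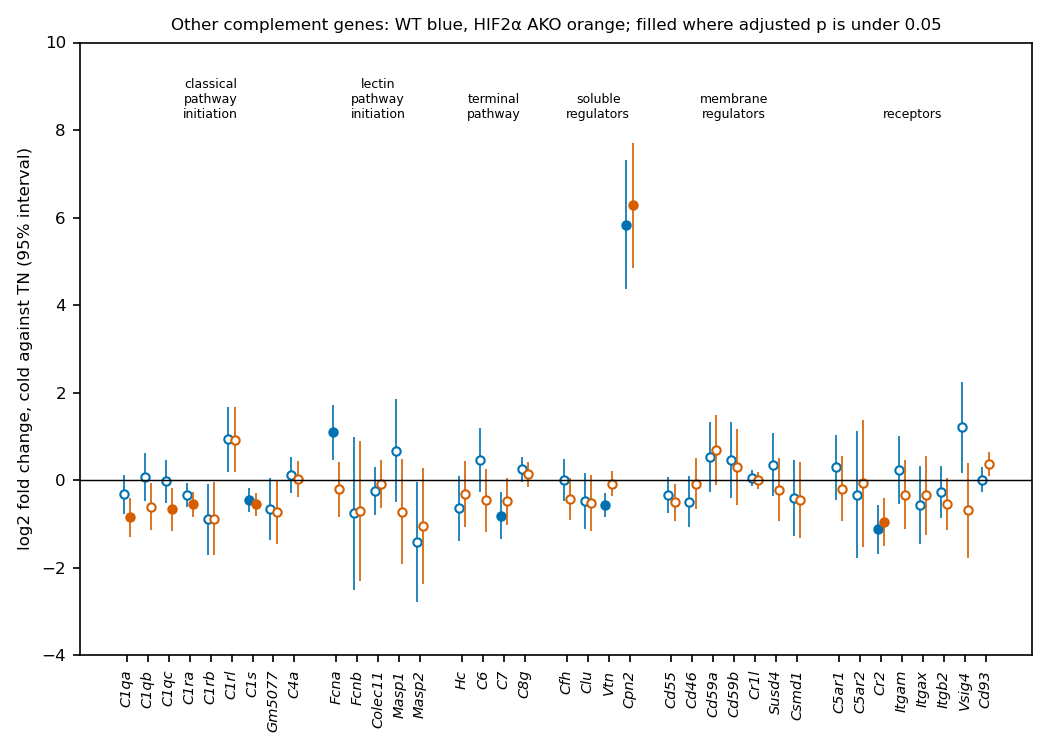
Log2 fold change in cold against TN (vertical axis) with its 95% interval for 37 other tested complement genes, grouped by their place in the cascade, in WT and HIF2α AKO. Filled points passed an adjusted p under 0.05 in edgeR. Cpn2 stands far above 0 in both genotypes, and all filled points of the classical pathway lie below 0.

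Of 48 other complement genes looked for, 37 were tested, and the rest had at most 8 counts in any library. In cold WT 4 of the 37 fell and 2 rose, in cold HIF2α AKO 5 fell and 1 rose, and on average over genotypes 10 fell and 2 rose. Of all genes tested, 5.68% fell and 15.6% rose in cold WT, 11.5% fell and 15.6% rose in cold HIF2α AKO and 24% fell and 24.8% rose on average, so the rises among the 37 were fewer than these shares give and the falls were near or above them, with no test made. In cold, 0 of them passed between genotypes in edgeR, with 3 at an unadjusted p under 0.05, and 0 in DESeq2 and voom. Among 9 genes that start the classical route, C1s fell in both genotypes. C1s, the protease that cleaves C4 and C2, went from 386.3 ± 39.89 CPM (SD, n = 3) to 283.4 ± 29.21 in WT (log2 fold change -0.45, adjusted p = 0.0274) and from 393.2 ± 30.7 to 267.6 ± 25.01 in HIF2α AKO (-0.56, adjusted p = 0.00967). C1qa, C1qc and C1ra fell in HIF2α AKO, by 0.85, 0.67 and 0.56 on the log2 scale, with adjusted p of 0.0131, 0.0478 and 0.0104, and were at -0.33, -0.03 and -0.34 in WT (adjusted p of 0.24, 0.938 and 0.0744). C1rl, a C1r-like protease, rose on average by 0.93 (adjusted p = 0.00896).

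Outside the classical route, receptors, terminal components and regulators were called as well. Cr2, a receptor for C3d best known from B cells, fell from 150.8 ± 42.45 to 69.16 ± 15.15 CPM in WT (log2 fold change -1.12, adjusted p = 0.0112) and from 138.7 ± 36.71 to 71.4 ± 14.53 CPM in HIF2α AKO (-0.96, adjusted p = 0.019). The sum of 8 B cell markers was 1301 to 2215 CPM at TN and 657.9 to 1227 CPM in cold, and its part in the fall of Cr2 was not tested. In WT, C7 of the membrane attack complex fell by 0.81 (adjusted p = 0.0381), Vtn, which encodes vitronectin, fell by 0.57 (adjusted p = 0.0116) and Fcna, a ficolin of the lectin route, rose by 1.09 (adjusted p = 0.0213). In HIF2α AKO the log2 fold changes of C7, Vtn and Fcna were -0.48, -0.08 and -0.21 (adjusted p of 0.152, 0.654 and 0.584), and the interaction had an adjusted p of 1 for each, as it had for C1qa, C1qc and C1ra. Among 7 tested membrane regulators, Cd55 fell on average by 0.43 (adjusted p = 0.0226). Masp2, C1rb and Gm5077 also fell on average, at under 3 CPM.

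The largest fold change among these genes was the rise of Cpn2, the regulatory subunit of carboxypeptidase N, which inactivates C3a and C5a in plasma. Cpn2 had 4, 2 and 15 counts in TN WT and 2, 9 and 22 in TN HIF2α AKO, against 235, 425 and 237 in cold WT and 856, 512 and 704 in cold HIF2α AKO. Its log2 fold change was 5.84 ± 0.67 in WT (adjusted p = 0.000606) and 6.28 ± 0.65 in HIF2α AKO (adjusted p = 0.000224), with the lowest cold mouse far above the highest TN mouse. As it rests on 2 to 22 TN counts, its size moved with 1 library, to 7.11 in WT without TN WT replicate 3 and to 7.28 in HIF2α AKO without TN HIF2α AKO replicate 3. The cold level was 12.74 ± 4.72 CPM in WT and 30.08 ± 10.56 CPM in HIF2α AKO (SD, n = 3), a difference of 1.24 in log2 with an adjusted p of 1. Cpn1, the catalytic subunit, had at most 4 counts per library.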

How the data were processed

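Whole-tissue RNA of iWAT from 12 mice was sequenced. Per the submitters' processing notes, the authors trimmed reads with Trim Galore 0.4.4, aligned them with STAR 2.6.1d to GRCm38 (mm10) and counted them with HTSeq 0.13.5; the annotation, strand setting and multiple-match rule are not given in the sources used here, but reads aligned to several places are listed apart from genes. The deposited values are raw read counts per gene, and the table of the series held the same counts as the 12 single tables. Tallies of reads outside genes (21.9 to 27% of reads listed) were left out of totals. A count of 0 allows up to 3 counts, or 0.0764 to 0.145 CPM, and this limit covers counting error only.

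Libraries were grouped by their labels. Genes were kept with filterByExpr (minimum count 10, minimum total 15), scaled by TMM (factors 0.829 to 1.2) and fitted in edgeR 4.0.16 (R 4.3.3) with 1 factor of 4 groups by the quasi-likelihood test, and p-values were adjusted by Benjamini-Hochberg over 15306 genes with a limit of 0.05. The step was tested on simulated data. DESeq2 1.42.0, voom (limma 3.58.1), other scalings, filters and thresholds, a replicate block, and each library left out were the alternatives. Exon lengths are merged exons of GENCODE vM21, and promoters are from RefSeq (GRCm38.p6). Named are the 9 genes, other complement genes that were called or among the highest of their list, and for each of the 9 the nearest genes by Pearson r among those with a mean count of at least 50. The members, lists and tests were chosen with earlier results of these data known. Of the neutrophil markers Ly6g had no row, and C1s2 was read as Gm5077. Ratios of paralogs and the removal of pairs of libraries were added after the values were seen. The p-values measure the spread between mice as far as the labelled replicates are separate mice.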

Additional observations from a re-analysis of the deposited data

Results flagged for a closer look

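Cfp stood out because its genotype difference had opposite signs at TN and in cold. All 3 TN HIF2α AKO mice were above all 3 TN WT mice, but narrowly (lowest 28.0 against highest 27.4 CPM). All 3 cold HIF2α AKO mice were below all 3 cold WT mice, again narrowly (highest 20.8 against lowest 21.2 CPM). The share of all genes with no overlap between genotypes was not counted. The interaction was -2.62 ± 0.92 in log2 (edgeR, unadjusted p = 0.0158, adjusted p = 1). At each temperature 1 library set the size, since without both high libraries the interaction of Cfp was -0.50.

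Vtn, which encodes vitronectin, showed the reverse. It was at 33.6, 31.8 and 30.2 CPM in TN WT and at 27.1, 21.9 and 29.9 CPM in TN HIF2α AKO, but at 22.2, 23.8 and 18.5 CPM in cold WT and at 23.9, 24.1 and 26.7 CPM in cold HIF2α AKO. The interaction was 0.487 ± 0.18 in log2 (edgeR, unadjusted p = 0.0201, adjusted p = 1), and neither gene passed adjustment over all genes.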

How the results depend on the processing

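With all libraries and edgeR, 1, 2 and 3 of the 9 genes were called in cold in WT, in HIF2α AKO and on average, and 6, 6 and 12 of the other complement genes. With library totals alone these became 2, 8 and 6 and 10, 13 and 20, as the median of all genes then moved to -0.33 in WT and -0.32 in HIF2α AKO. DESeq2 called 2 of the 9 in WT and 5 in HIF2α AKO. Voom called 5 in HIF2α AKO and 5 on average, and 11 other genes in HIF2α AKO. A fit of the compared groups only called 0 in WT and 10 other genes in HIF2α AKO. At the study's thresholds (unadjusted p under 0.15 and a log2 fold change beyond 0.2) the 9 genes gave 2, 8 and 5 calls in cold against TN. Between genotypes they gave 1 at TN and 2 in cold, and for the interaction 3. The other genes gave 18, 18 and 19 in cold against TN and 10 between genotypes in cold. Of all genes, 52.5, 54.6 and 59.9% passed in cold against TN. Between genotypes 8.63% passed at TN and 8.98% in cold, and for the interaction 8.81%.

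Without both muscle-bearing libraries 0 of the 9 and 1 other gene were called in HIF2α AKO. Without both high-Cfp libraries it was 0 in WT and 4 in HIF2α AKO, and 2 other genes in WT and 7 on average. The 4 include Cfp itself, by whose values both libraries were picked, so its call there has no meaning. Leaving out 1 library at a time gave 0 to 2 calls among the 9 in WT, 0 to 4 in HIF2α AKO and 3 to 4 on average, and 2 to 9, 2 to 8 and 9 to 16 among the others. In all, 217 of 260 counts stayed within 1.5 times. Cr1l, called under library totals alone, turned from 0.05 to -0.251 in WT and from 0.02 to -0.261 on average. Of 1414 fold changes of the 9 genes, 73 that had not been called changed sign.

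Same-numbered replicates were not steadily alike, as 5 of 18 such pairs had a correlation over 0.1 (range -0.51 to 0.52). With 3 mice a group, these correlations cannot settle whether replicate numbers pair the mice. The replicate block called 1, 2 and 3 of the 9 genes in WT, in HIF2α AKO and on average, and 2561 and 3313 of all genes in WT and HIF2α AKO against 3259 and 4138. With 3 mice a group, changes of Cfd, Cfi and Cfp of the size given by their intervals cannot be resolved.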
